A study of Mus musculus with 6 samples.

Results

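Laminins, the integrins that bind them and other basement membrane genes were examined in mouse kidneys with a floxed cyclin B1 gene. The genes were chosen by name: every symbol of a laminin alpha, beta or gamma chain, every integrin alpha or beta chain, and Nid1, Nid2, Hspg2, Agrn, Frem1, Frem2, Fras1 and Npnt. This gave 45 of the 51804 gene symbols in the deposited table. Kidney RNA was sequenced from 3 libraries labelled cko, of genotype Ccnb1f/f;Cdh16-Cre, and 3 libraries labelled control, of genotype Ccnb1f/f. Both groups thus carry the floxed allele, and the Cre transgene is the labelled difference. The Cdh16 promoter (kidney-specific cadherin) is active in tubular epithelium, and stromal, vascular and immune cells of the kidney are outside that labelled driver. The labels give no age, and they do not say whether the libraries of a group are different animals. The p-values therefore describe library-to-library spread, which may be technical. The title and design text put the question as the effect of tubular cyclin B1 loss on kidney ageing and fibrosis.

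Basement membranes are thin sheets of matrix under epithelia and around vessels, muscle cells and nerves. Laminins are trimers of an alpha, a beta and a gamma chain that polymerise on the cell surface. Nidogens and perlecan join the laminin network to the collagen IV network, and agrin carries heparan sulphate chains. Integrins are receptors of an alpha and a beta chain that anchor cells to this sheet and signal through adaptors inside the cell. In the kidney the glomerular and tubular basement membranes differ in chain makeup, and a laminin trimer of alpha5, beta2 and gamma1 chains forms the mature glomerular one.

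The libraries held 16061435 to 21261226 estimated counts, of which the 45 genes took 0.234% to 0.274%. Kidney identity matched the label, with Umod at a mean of 2024 FPKM and Slc34a1 at 1857 FPKM, and all fixed markers of proximal tubule, distal tubule, collecting duct, podocytes and endothelium were present in every library. Ccnb1 had 18, 15 and 11 counts in the libraries labelled cko, against 11, 17 and 7 counts in controls, with a log2 fold change of 0.34 (SE 0.46, 95% interval -0.71 to 1.39). The groups overlapped, so Ccnb1 in bulk kidney RNA did not show the deletion at this depth and the genotype rests on the labels. Control 2 stood apart from the rest, at -49.6 on a first principal component (28.6% of the variance) where the others ran from -7.23 to 22.1. On the second (23.3%) the cko libraries ran from -29.7 to -8.21 and the controls from 7.36 to 37.2, with control 3 farthest out. Control 3 also had 792 CPM of the heat shock gene Hspa1a, against 13.9 to 99.4 CPM in the other libraries.

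Expression of the 45 genes spanned the range from abundant to barely detected. Levels between genes are compared as FPKM, which divides by transcript length. Itgb1, the beta chain shared by most matrix-binding integrins, was highest, at a mean of 84.2 FPKM over the 6 libraries. It was followed by Npnt at 45.1 FPKM, Itgb5 at 42.4 FPKM, Agrn at 37.0 FPKM and Itga6 at 36.2 FPKM. The ranges of the last 4 genes over the libraries overlapped, so their order was not separated from the spread. At the other end, Itga2 averaged 0.23 FPKM, and Itga11 and Itgad had at most 4 and 8 counts in any library and were too low to test. Ordering the genes by counts per kilobase of the longest annotated transcript in place of FPKM gave nearly the same order (Spearman rho = 0.99 across 45 genes, a description over genes measured in the same libraries).

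**Figure D1:**
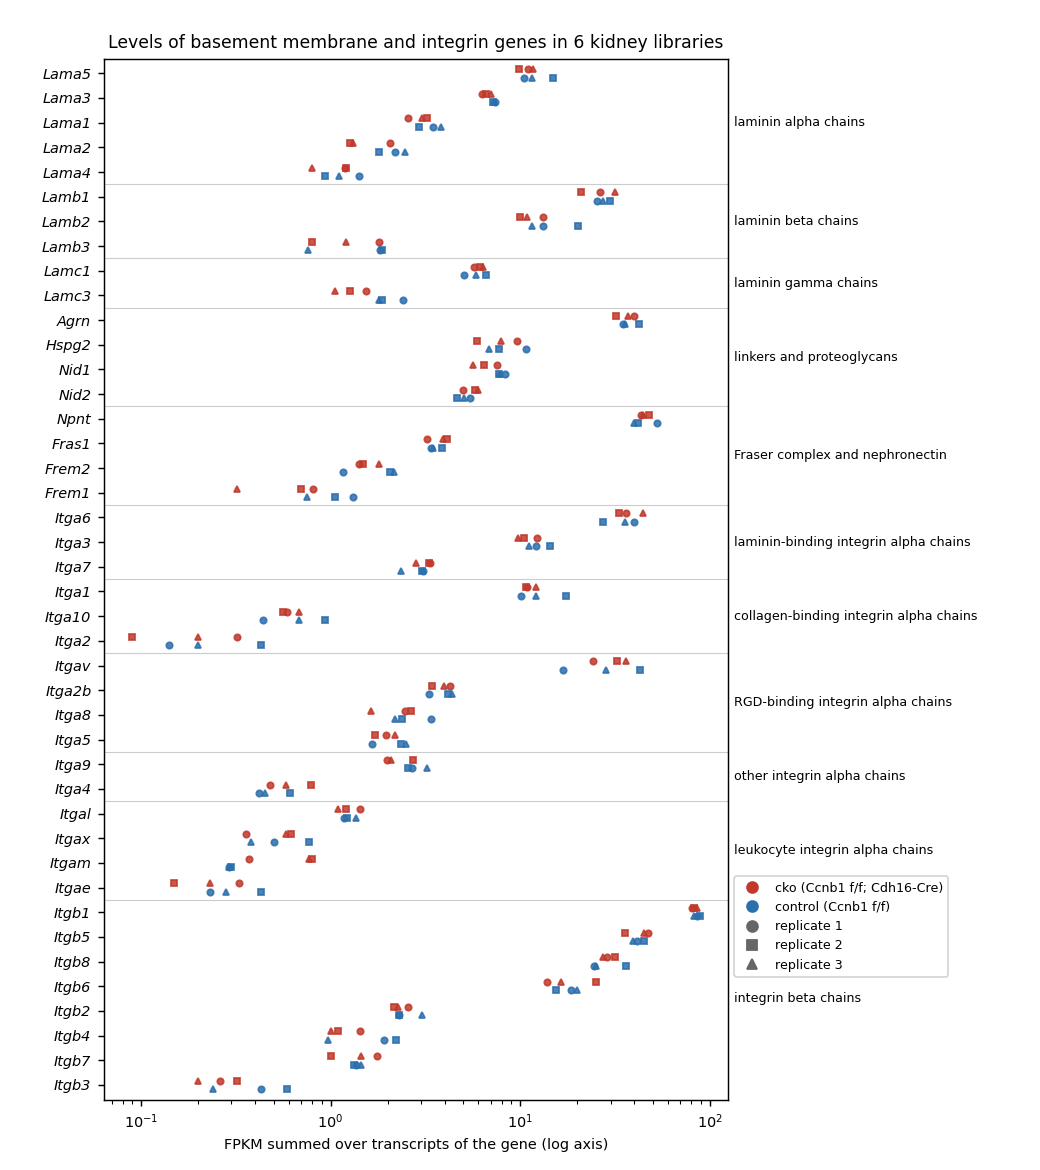
FPKM of 42 of the 43 tested genes in each library (log axis), grouped by role. Red points are libraries labelled cko and blue points are controls, with 1 marker shape per replicate number. Itgb1 stands highest at a mean of 84.2 FPKM, and for most genes the red and blue points overlap.

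The laminin-binding integrin alpha chains are made with alternative cytoplasmic tails, A and B, and in the annotation used here tail A is read where an exon with its own stop codon is included and tail B where that exon is skipped and the last exon is translated. Among the transcripts compared, the tail in use differed between Itga3 and Itga6. The coding stretches of these tails, up to and including the stop codon, are printed because the transcript shares given after them turn on which one was read. They are from GENCODE M21 (GRCm38), 5′ to 3′ on the coding strand, and capitals mark bases identical between Itga3 and Itga6 when the same tail of both genes is aligned. The A tail lies at chr11:95046480-95046590 on the minus strand for Itga3 and at chr2:71853534-71853641 on the plus strand for Itga6, and the B tail at chr11:95045608-95045763 and chr2:71855854-71856015 on the same strands.
Itga3 A: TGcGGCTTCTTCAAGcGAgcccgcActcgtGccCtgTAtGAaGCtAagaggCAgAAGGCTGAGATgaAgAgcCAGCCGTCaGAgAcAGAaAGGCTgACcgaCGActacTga
Itga3 B: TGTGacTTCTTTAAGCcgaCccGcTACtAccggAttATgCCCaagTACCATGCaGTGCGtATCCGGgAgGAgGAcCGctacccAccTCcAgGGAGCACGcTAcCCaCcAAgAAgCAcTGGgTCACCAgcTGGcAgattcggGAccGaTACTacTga
Itga6 A: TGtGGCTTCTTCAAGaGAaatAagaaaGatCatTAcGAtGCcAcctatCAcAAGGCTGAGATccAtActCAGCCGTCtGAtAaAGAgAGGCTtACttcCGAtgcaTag
Itga6 B: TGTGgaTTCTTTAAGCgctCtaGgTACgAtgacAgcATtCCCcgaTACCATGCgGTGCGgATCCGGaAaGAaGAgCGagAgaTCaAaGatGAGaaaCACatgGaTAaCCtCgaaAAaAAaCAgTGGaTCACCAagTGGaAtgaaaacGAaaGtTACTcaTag
The A tails share 66 of 108 aligned bases (61.1%) and the B tails 96 of 152 (63.2%). The coding sequences predict proteins of 1053 residues for Itga3 A and 1068 for Itga3 B, and of 1073 for Itga6 A and 1091 for Itga6 B.

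Itga3 encodes a chain that binds laminins with the alpha5 chain and is needed by podocytes and collecting ducts. Of its A and B transcripts compared here, A alone had counts. The A transcript had 741 to 1200 counts and the B transcript was listed at 0 in all 6 libraries. A count of 0 allows this B transcript a share of up to 0.25% to 0.405% by library, counting error only. A transcript estimate of 0 can also come from the allocation. Another Itga3 transcript (4636 bases) had 14.2 counts in cko 3, 16.8 in control 1 and 0 in the other libraries. Its tail was not checked. Itga6, whose product pairs with beta1 or beta4 to bind laminins, had both tails. Tail A made up 29.4%, 20.03% and 23.3% of the A and B counts in cko, against 13.9%, 39.2% and 25.6% in controls. The B tail was the larger in every library, and the controls spread more widely than the cko libraries (24.2% ± 4.75 and 26.3% ± 12.7, SD, n = 3 each). Another Itga6 transcript, annotated as non-coding, took 35.9% of the gene's counts on average and was left out of the ratio.

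**Figure D2:**
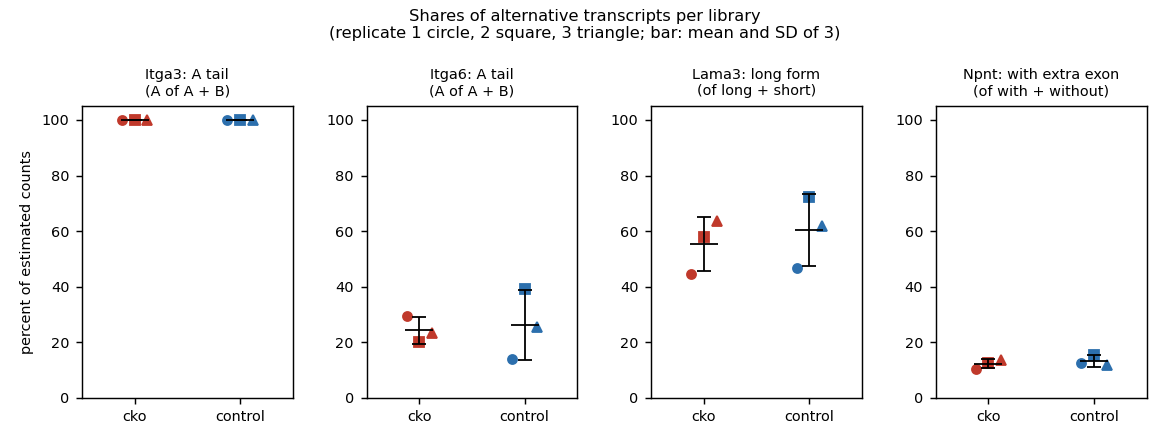
Percent of estimated counts given to 1 of a pair of alternative transcripts, per library, for the A tail of Itga3 and Itga6, the long form of Lama3 and the Npnt form with the extra exon, with mean and SD of 3 libraries. Within the Itga3 pair compared, the A transcript takes 100% in all 6 libraries, and the groups overlap in the other panels.

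Other alternative forms also overlapped between genotypes. The long Lama3 transcript (10548 bases, against 5551 for the short one) took 44.7%, 57.9% and 63.5% of the pair's counts in cko, against 46.6%, 72.4% and 62.0% in controls. Npnt with a 51-base coding exon, which lengthens the protein to 578 residues compared with 561, took 10.5%, 12.6% and 13.7% in cko, against 12.4%, 15.6% and 11.8% in controls. The form without that exon was thus the larger in every library. Agrn with the long N-terminus took 70.5%, 82.4% and 98.5% in cko, against 40.6%, 79.4% and 90.2% in controls, a spread within each group larger than the distance between their means (83.8% ± 14.1 and 70.1% ± 26.0, SD, n = 3 each). Of the 45 genes, 24 had 1 transcript with over 90% of the counts in every library.

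No laminin, integrin or other basement membrane gene passed the test between the genotypes. With edgeR's quasi-likelihood test and Benjamini-Hochberg adjustment over 15017 genes, 0 of the 43 tested genes had an adjusted p under 0.05. Every one had an adjusted p of 0.99949 or above. Over all genes 2 passed, which is 0.0133%. DESeq2 and limma also called 0 of the 43, and DESeq2 called 15 genes in all, or 0.0812% of those given an adjusted p. Without adjustment, 6 of the 43 had p under 0.05 (3.23% of all genes did), of which 5 were lower in cko (11.6%, against 1.88% of all genes) and 1 was higher (2.33%, against 1.35% of all genes). The number of lower genes depended on single libraries and on the scale: it was 7 without cko 1, 3 without cko 2, 2 without cko 3 and 1 with limma on either FPKM scale.

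More of the genes had lower than higher levels in the cko kidneys, by small amounts. The log2 fold change was below 0 for 28 of the 43 genes (65.1%, against 51.0% of all genes), and the median was -0.14, against -0.01 over all genes tested. Without control 2 the median of the 43 genes was -0.07. Of the 24 tested integrin genes 14 were below 0 (58.3%), with a median of -0.06. The summed CPM of the 45 genes was 2377, 2395 and 2422 in cko, against 2470, 2580 and 2421 in controls, and the groups overlapped. The cko libraries differed in how far the genes lay from the controls. The median distance of the 43 genes from the control mean, in log2(CPM + 0.5), was -0.02, -0.20 and -0.12 in cko 1, 2 and 3, against -0.01, 0.02 and -0.01 in controls 1, 2 and 3. The controls were measured from their own mean, so their values lie near 0 in part by construction and do not show their spread. Cko 1 lay nearest the control mean and cko 2 farthest below it. In 7 genes every cko library was below every control (16.3%, against 4.08% of all genes), and in 2 every cko library was above (4.65%, against 4.1%). The 7 lower genes were Frem1, Lama2, Lamc3, Nid1, Hspg2, Itga9 and Lama3, and the 2 higher genes were Itgam and Itga10. In FPKM, which also moves with how counts were divided among transcripts, only Lamc3, Nid1, Lama3 and Itgam of these 9 kept the groups apart. The exact two-sided permutation p of each of the 9 was 0.1, the smallest that 3 against 3 libraries can give.

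The precision differed between genes. The standard error of the log2 fold change had a median of 0.18 and ran from 0.09 for Itgb1 to 0.55 for Itga2. The 95% interval lay within 1 log2 unit of 0 for 35 of the 43 genes and within 0.5 for 14. These intervals, from 3 libraries a group, are not adjusted for the number of genes tested. They therefore do not give the size of change that the adjusted test could call. The interval excluded 0 for 6 of the 43 genes, and none of these passed the adjusted test.

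**Figure D3:**
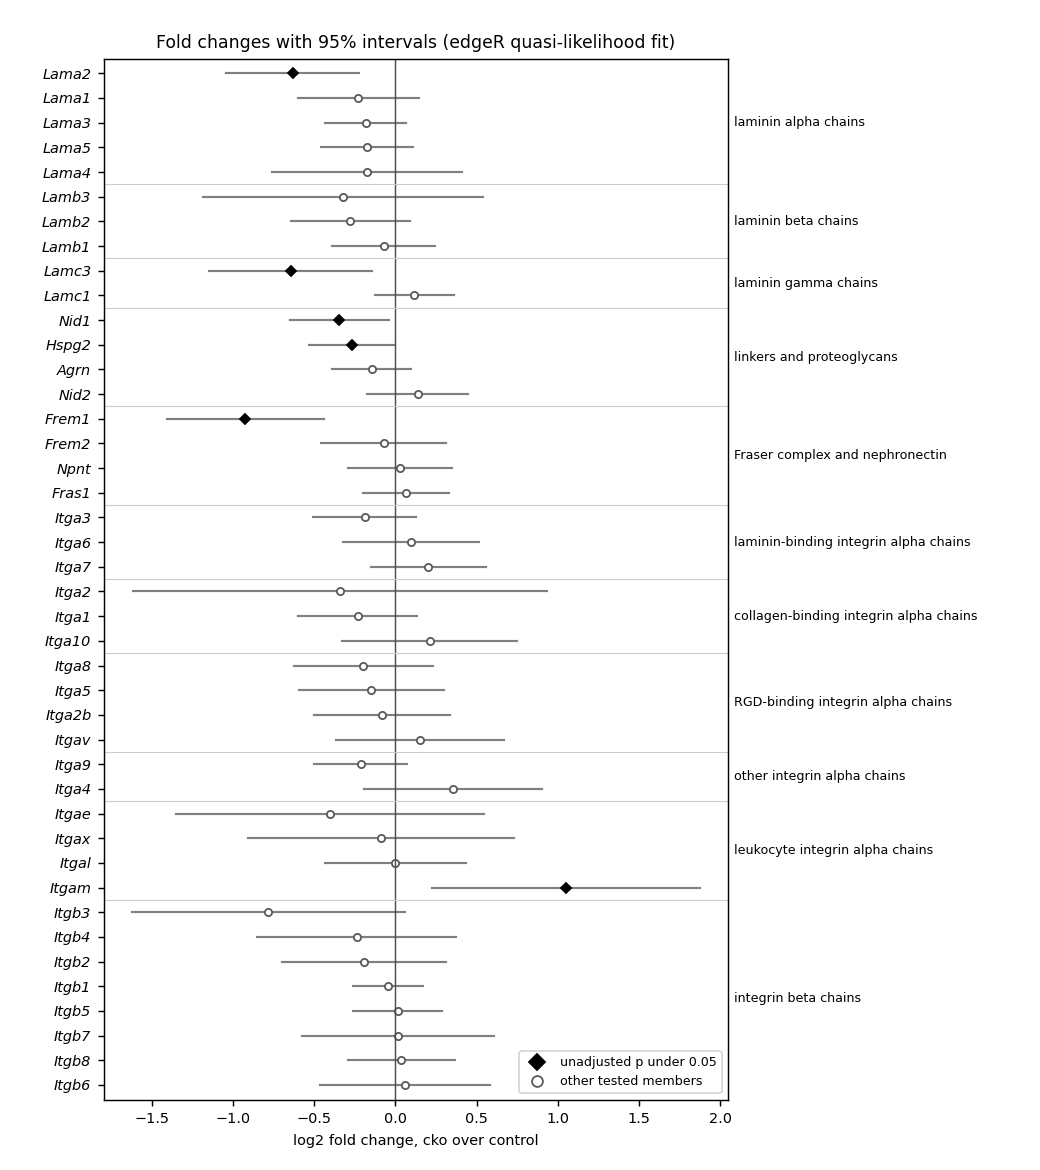
Log2 fold change, cko over control, with 95% intervals from the edgeR fit for 42 of the 43 tested genes, grouped by role. Filled diamonds mark the 6 genes with an unadjusted p under 0.05, and all 43 had adjusted p of 0.99949 or above.

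Among the laminin chains, all 5 alpha chains and all 3 beta chains had log2 fold changes below 0. Of all genes, 51.0% did. The median over the 11 chains was -0.18, and 0 of 11 passed the adjusted test of edgeR, DESeq2 or limma. An unadjusted p under 0.05 was found for 2 of them (18.2%, against 3.23% of all genes). The summed alpha chains reached 23.2, 22.2 and 23.9 FPKM in cko, against 24.9, 27.7 and 26.2 FPKM in controls. The groups did not overlap, with means of 23.1 ± 0.86 and 26.3 ± 1.42 FPKM (SD, n = 3 each; exact permutation p = 0.1). Summed beta chains were 41.3, 31.8 and 43.8 FPKM in cko, against 40.4, 51.8 and 39.7 FPKM in controls, and the groups overlapped. Per length, beta chain RNA (41.5 FPKM over all libraries) thus exceeded alpha chain RNA (24.7 FPKM) in every library, although the trimer holds 1 of each.

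**Figure D4:**
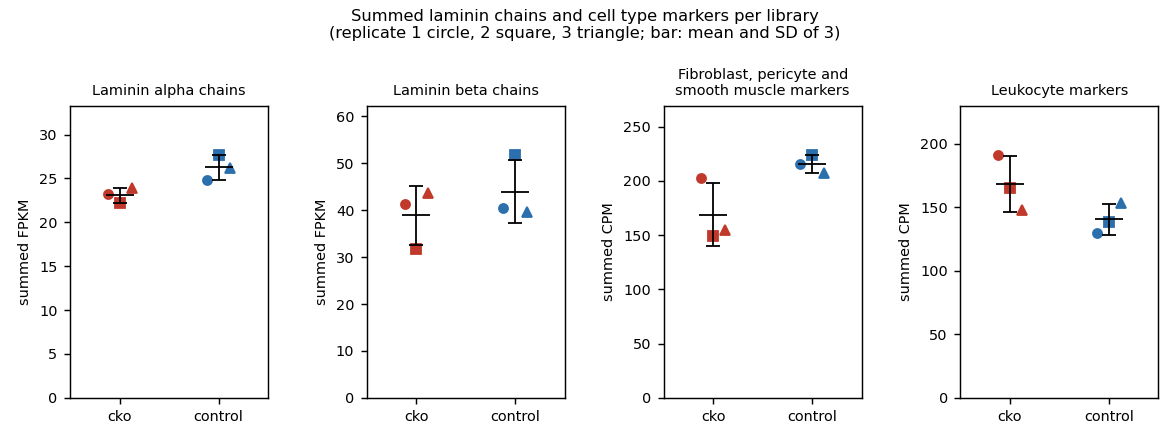
Summed level per library of the laminin alpha and beta chains (FPKM) and of the fixed marker lists for fibroblasts with pericytes and smooth muscle and for leukocytes (CPM), with mean and SD of 3 libraries. The alpha chain sums and the stromal marker sums are lower in all 3 cko libraries than in any control, and the other sums overlap.

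Lama5, the alpha chain of mature epithelial basement membranes, was the most abundant alpha chain at 11.6 FPKM. It had 126, 114 and 131 CPM in cko, against 123, 159.8 and 136 CPM in controls. The groups overlapped, and control 2 was the highest (log2 fold change -0.18, SE 0.12), and without it the log2 fold change was -0.07. Lama3, which anchors epithelia such as skin, had 44.6, 51.1 and 54.6 CPM in cko, against 54.6, 57.0 and 58.9 CPM in controls. The highest cko library and the lowest control were almost equal (log2 fold change -0.18, SE 0.11). Lama1, a chain of embryonic and tubular basement membranes, had a log2 fold change of -0.23 (SE 0.16), and Lama4, a chain of vessel walls, one of -0.17 (SE 0.25).

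Lama2, the alpha chain of muscle and Schwann cell basement membranes, had the largest distance from 0 among the alpha chains. It had 11.6, 7.82 and 8.90 CPM in cko, against 14.0, 14.1 and 15.9 CPM in controls. All cko libraries lay below all controls, and cko 1 lay nearest to them. The means were 9.46 ± 1.97 and 14.7 ± 1.07 CPM (SD, n = 3 each), a log2 fold change of -0.63 (SE 0.18, 95% interval -1.04 to -0.22, edgeR adjusted p = 0.9995). In FPKM the groups overlapped.

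Lamb1, the beta chain of most developing basement membranes, had 149, 123 and 176 CPM in cko, against 150.6, 159 and 162 CPM in controls. The cko values spread on both sides of the controls (log2 fold change -0.07, SE 0.14). Lamb2, the beta chain of mature glomerular and neuromuscular basement membranes, had 62.2, 47.6 and 50.3 CPM in cko, against 62.8, 77.1 and 54.0 CPM in controls. Control 2 was highest and the groups overlapped (log2 fold change -0.28, SE 0.16), and without it the log2 fold change was -0.13. The ratio of Lamb1 to Lamb2 in FPKM was 2.00, 2.08 and 2.92 in cko, against 1.91, 1.46 and 2.38 in controls, so Lamb1 exceeded Lamb2 in every library and the ratio overlapped between genotypes. Lamb3, a beta chain of epithelial anchoring, had a log2 fold change of -0.32 (SE 0.37). It overlaps G0s2 and Hsd11b1 on the opposite strand, both with more counts than Lamb3, and the sources used here do not give the strandedness, so its counts are uncertain.

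Lamc1, the gamma chain of most laminins, had 43.6, 46.2 and 47.5 CPM in cko, against 38.5, 45.8 and 42.3 CPM in controls. The groups overlapped only at control 2 (log2 fold change 0.12, SE 0.11). Lamc3, a gamma chain with a mean of 1.66 FPKM, had 9.10, 7.57 and 5.996 CPM in cko, against 14.6, 10.1 and 10.7 CPM in controls. All cko libraries lay below all controls, with means of 7.55 ± 1.55 and 11.8 ± 2.41 CPM (SD, n = 3 each). Its log2 fold change was -0.64 (SE 0.22, 95% interval -1.15 to -0.14, edgeR adjusted p = 0.9995).

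Of the linkers and proteoglycans, 3 of 4 had log2 fold changes below 0 (75%, against 51.0% of all genes). Of these 4, 0 passed the adjusted test of edgeR, DESeq2 or limma. An unadjusted p under 0.05 was found for 2 (50%, against 3.23% of all genes). Agrn, agrin, was the most abundant at 37.0 FPKM and had 214, 189 and 198 CPM in cko, against 223, 236 and 205 CPM in controls. The groups overlapped (log2 fold change -0.14, SE 0.11). Hspg2, perlecan, had 95.1, 77.5 and 81.4 CPM in cko, against 110.0, 99.6 and 95.4 CPM in controls. Cko 1 lay just under the lowest control and the groups did not overlap in CPM, though they did in FPKM (log2 fold change -0.26, SE 0.11, edgeR adjusted p = 0.9995).

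The nidogens bind laminin gamma1 and collagen IV. Nid1 had 42.5, 34.4 and 31.6 CPM in cko, against 44.4, 44.2 and 49.1 CPM in controls. All cko libraries were below all controls, with means of 36.2 ± 5.69 and 45.9 ± 2.75 CPM (SD, n = 3 each; log2 fold change -0.34, SE 0.13, edgeR adjusted p = 0.9995). Nid2 had 24.5, 28.5 and 28.7 CPM in cko, against 27.5, 21.3 and 25.5 CPM in controls. The groups overlapped (log2 fold change 0.14, SE 0.14). The ratio of Nid1 to Nid2 in FPKM was 1.51, 1.12 and 0.94 in cko, against 1.54, 1.66 and 1.54 in controls. The ratio was lower in every cko library, cko 1 by little (means 1.19 ± 0.29 and 1.58 ± 0.07, SD, n = 3 each; exact permutation p = 0.1). Nid2 overlaps 2700060E02Rik on the opposite strand, which had a mean of 1391 counts against 468 for Nid2, so the Nid2 value and the ratio are uncertain without strand.

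The Fraser complex, FRAS1 with the FREM proteins, joins epithelium to the mesenchyme beneath it in development, and nephronectin (Npnt) is the integrin alpha8 beta1 ligand that the kidney needs to form. Frem1 had the lowest unadjusted p of the 43 genes and was low, with 49, 51 and 65 counts in cko, against 89, 100 and 115 counts in controls. In CPM these were 2.84, 3.22 and 2.998 in cko, against 5.40, 5.07 and 6.72 in controls. All cko libraries lay close together below all controls, with means of 3.02 ± 0.19 and 5.73 ± 0.87 CPM (SD, n = 3 each). This is a log2 fold change of -0.92 (SE 0.21, 95% interval -1.41 to -0.44, edgeR adjusted p = 0.9995). In FPKM the groups overlapped, from 0.32 to 0.81 FPKM in cko and from 0.75 to 1.32 FPKM in controls.

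The partners of Frem1 and the ligand Npnt overlapped between groups. Fras1 had 50.7, 65.6 and 60.7 CPM in cko, against 55.9, 57.1 and 56.1 CPM in controls, with the cko values on both sides of the controls (log2 fold change 0.07, SE 0.12). Frem2 had 12.3, 15.4 and 15.8 CPM in cko, against 13.5, 17.9 and 14.3 CPM in controls, and the groups overlapped (log2 fold change -0.07, SE 0.17). Npnt had 193, 210.4 and 188 CPM in cko, against 233, 169 and 178 CPM in controls. The controls spanned the cko values (log2 fold change 0.03, SE 0.14). Itga8, the alpha chain of its receptor, had 14.3, 11.5 and 8.99 CPM in cko, against 14.0, 12.8 and 13.2 CPM in controls. Cko 3 was the lowest and the groups overlapped (log2 fold change -0.20, SE 0.19). Per length, Npnt exceeded Itga8 in every library, by 17.7, 18.0 and 27.3 times in cko and by 15.5, 17.8 and 18.2 times in controls.

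**Figure D5:**
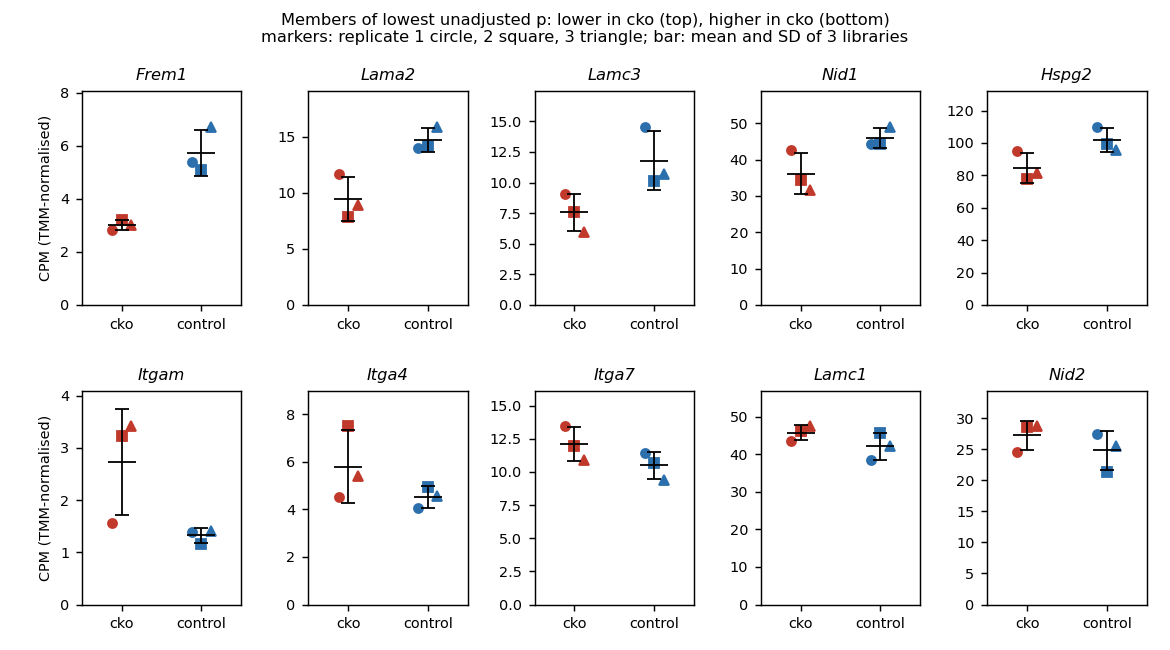
CPM per library, on axes from 0, for the 5 genes of lowest unadjusted p with lower values in cko (top: Frem1, Lama2, Lamc3, Nid1, Hspg2) and the 5 with higher values (bottom: Itgam, Itga4, Itga7, Lamc1, Nid2), with mean and SD of 3 libraries. The groups are apart in the top panels and for Itgam, and the other bottom panels overlap.

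Markers of stromal cells were measured beside these genes. Of the 9 fixed markers of fibroblasts, pericytes and smooth muscle, 8 had log2 fold changes below 0 (88.9%, against 51.0% of all genes). Their median was -0.45. None of the 9 passed the adjusted test of edgeR, DESeq2 or limma. An unadjusted p under 0.05 was found for 6 (66.7%, against 3.23% of all genes): Tagln, Dcn, Acta2, Pdgfrb, Col1a1 and Myh11. Of the rest, Rgs5 had a log2 fold change of 0.31 (SE 0.21), Cspg4 one of -0.09 (SE 0.17) and Pdgfra one of -0.32 (SE 0.30). The 9 markers summed to 202, 149 and 155 CPM in cko, against 216, 224 and 207 CPM in controls, without overlap (exact permutation p = 0.1). Cko 1 was the cko library nearest the controls in this sum, as it was for Lama2, Lamc3, Nid1 and Hspg2. Frem1 and Lama3 were lowest in cko 1, and Itga9 was nearest the controls in cko 2. In the median over the 43 genes cko 1 was also nearest the controls. All 9 markers were present in every library. For the other lists the median log2 fold change and the tested markers below 0 were as follows. They were podocyte (-0.06, 5 of 7), endothelium (-0.09, 5 of 7), collecting duct (-0.06, 5 of 7) and urothelium (0.06, 2 of 5). Thick ascending limb and distal tubule had 0.02 (2 of 4), proximal tubule -0.13 (5 of 6) and Schwann cell -0.09 (1 of 2). Adipose tissue had -0.36 (4 of 4) and platelet 0.21 (0 of 2). Lists with most markers below 0 were thus not confined to stroma. In these lists 0 markers passed the adjusted test of edgeR, DESeq2 or limma, and 1, of the proximal tubule, had an unadjusted p under 0.05. In bulk kidney RNA, fewer cells of a type and less RNA per cell cannot be told apart, and the part of cell makeup in the values above was not tested.

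Among the laminin-binding integrin alpha chains, counted as gene totals, Itga6 had 121, 118 and 149 CPM in cko, against 144, 90.2 and 129 CPM in controls. The groups overlapped, with control 2 lowest (log2 fold change 0.10, SE 0.18). Itga3 had 59.3, 47.3 and 44.6 CPM in cko, against 59.7, 61.5 and 51.2 CPM in controls, and cko 1 lay among the controls (log2 fold change -0.19, SE 0.14). Itga7, the main laminin receptor of muscle, had 13.4, 11.9 and 10.9 CPM in cko, against 11.4, 10.7 and 9.40 CPM in controls, overlapping (log2 fold change 0.20, SE 0.15). Itga7 overlaps Mettl7b on the opposite strand, which had a mean of 3854 counts against 203 for Itga7, so its values are uncertain without strand.

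Among the collagen-binding chains, Itga1 was the most abundant at 12.2 FPKM. It had 64.8, 65.4 and 71.1 CPM in cko, against 62.9, 98.1 and 75.4 CPM in controls. Control 2 stood above the other 5 libraries (log2 fold change -0.23, SE 0.16), and without it the log2 fold change was -0.04. Itga10, a cartilage collagen receptor, had 2.96, 2.52 and 2.68 CPM in cko, against 2.25, 2.28 and 2.51 CPM in controls. The groups were apart by the narrow gap between 2.52 and 2.51 CPM, and the log2 fold change was 0.21 (SE 0.23) in counts but -0.05 with limma on log2(FPKM + 1). Itga2 had a log2 fold change of -0.34 (SE 0.55).

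Chains that bind the RGD motif of matrix proteins were led by Itgav at 30.1 FPKM. It had 133, 177 and 179 CPM in cko, against 104, 195 and 142 CPM in controls. The controls spanned the cko values (log2 fold change 0.15, SE 0.23). Its beta partners Itgb6 and Itgb8, with which it activates latent TGF-beta, overlapped between groups as well. Itgb6 had 60.7, 107 and 65.7 CPM in cko, against 80.4, 60.6 and 83.1 CPM in controls, with cko 2 highest (log2 fold change 0.06, SE 0.23). Itgb8 had 241, 268 and 226 CPM in cko, against 214, 286 and 216 CPM in controls, with control 2 highest (log2 fold change 0.04, SE 0.14). The Itgb8 to Itgb6 ratio in FPKM ranged from 1.25 to 2.06 in cko and from 1.25 to 2.32 in controls. Itga2b, the platelet fibrinogen receptor chain, had 7.53, 5.55 and 6.18 CPM in cko, against 6.86, 6.84 and 6.66 CPM in controls, overlapping (log2 fold change -0.08, SE 0.18), and Itga5, the fibronectin receptor chain, had a log2 fold change of -0.15 (SE 0.19).

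Itga9 and Itga4 bind ligands other than laminin and collagen. Itga9 had 14.0, 15.3 and 13.9 CPM in cko, against 17.5, 15.7 and 16.999 CPM in controls, apart by a narrow gap (log2 fold change -0.21, SE 0.12). Itga4, carried by leukocytes, had 4.52, 7.51 and 5.40 CPM in cko, against 4.07, 4.97 and 4.56 CPM in controls. Cko 2 was highest and cko 1 lay among the controls (log2 fold change 0.35, SE 0.24), and without cko 2 the log2 fold change was 0.13. Both genes overlap another gene on the opposite strand (Gm2415 for Itga9 and Cerkl for Itga4), as Itga1 overlaps Pelo on its own strand.

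Itgam was the leukocyte integrin with groups that did not overlap. It encodes the alpha chain of the complement receptor of macrophages and neutrophils, and had 27, 51 and 74 counts in cko, against 23, 23 and 24 counts in controls. In CPM these were 1.56, 3.22 and 3.41 in cko, against 1.40, 1.17 and 1.40 in controls. All cko libraries were above all controls, but cko 1 by little (2.73 ± 1.02 and 1.32 ± 0.14 CPM, SD, n = 3 each). This is a log2 fold change of 1.05 (SE 0.36, 95% interval 0.23 to 1.87, edgeR adjusted p = 0.9995).

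The chains related to it overlapped between groups. Itgb2, the beta chain that Itgam, Itgal and Itgax share, had 7.07, 5.80 and 6.37 CPM in cko, against 6.98, 5.73 and 9.29 CPM in controls (log2 fold change -0.19, SE 0.22). Itgal, a lymphocyte chain, had 6.90, 5.93 and 5.26 CPM in cko, against 5.58, 5.83 and 6.66 CPM in controls (log2 fold change -0.00, SE 0.19). Itgax, a dendritic cell and macrophage chain, had 1.45, 2.33 and 1.98 CPM in cko, against 1.58, 2.94 and 1.58 CPM in controls (log2 fold change -0.09, SE 0.36). No group of these 3 genes lay wholly above or below the other, and Itgae, which overlaps Gsg2 on the opposite strand, had a log2 fold change of -0.40 (SE 0.41). The 14 leukocyte markers summed to 191, 165 and 147 CPM in cko, against 129, 139 and 154 CPM in controls. These sums overlapped, and 10 of the 12 tested markers had log2 fold changes above 0 (16.7% were below 0, against 51.0% of all genes). Cko 1, with the highest sum, had the lowest Itgam of the cko libraries. The part of leukocyte content in the Itgam value was not tested.

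The other beta chains overlapped between groups. Itgb1 had 308, 318 and 319.8 CPM in cko, against 333, 318 and 324 CPM in controls. The groups overlapped, and the log2 fold change of -0.04 had the narrowest interval of the 43 genes (SE 0.09, 95% interval -0.26 to 0.17). Itgb1 made up 45.7%, 45.9% and 47.7% of summed beta chain FPKM in cko, against 48.5%, 46.1% and 47.7% in controls. Itgb5, an Itgav partner that binds vitronectin, had 146, 112 and 137 CPM in cko, against 133, 131.8 and 126 CPM in controls, with the cko values on both sides (log2 fold change 0.01, SE 0.12). Itgb3, the partner of Itgav and Itga2b, had 1.51, 1.64 and 1.11 CPM in cko, against 2.61, 3.19 and 1.46 CPM in controls. Control 3 lay among the cko libraries (log2 fold change -0.78, SE 0.36). Itgb4, the hemidesmosome chain, had a log2 fold change of -0.24 (SE 0.27), and Itgb7, a lymphocyte homing chain, one of 0.02 (SE 0.26).

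Genes that work with these chains gave 0 calls as well by the adjusted tests of edgeR, DESeq2 and limma. Over all genes tested, 51.0% had log2 fold changes below 0 and 3.23% had an unadjusted p under 0.05. Of 24 adaptors inside the cell, 9 had log2 fold changes above 0 and 15 below, with a median of -0.06. The most abundant were Tns1 at -0.14 (SE 0.16), Ilk at 0.00 (SE 0.10), Pxn at 0.05 (SE 0.10) and Parva at -0.07 (SE 0.09), and 1 adaptor had an unadjusted p under 0.05. Of 22 tested components of basement membranes outside the 45 genes, collagen IV chains included, 9 were above 0 and 13 below (median -0.04, 3 with an unadjusted p under 0.05). The most abundant of these were Tinag at 0.08 (SE 0.10), Sparc at -0.03 (SE 0.11), Col4a3 at 0.40 (SE 0.23) and Col4a4 at 0.22 (SE 0.14). Of 12 other receptors for basement membranes, such as syndecans and dystroglycan, 3 were above 0 and 9 below (median -0.09, 0 with an unadjusted p under 0.05). Of 11 enzymes that build the laminin-binding glycan of dystroglycan, 8 were above 0 and 3 below (median 0.06, 0 with an unadjusted p under 0.05). Of 15 tested integrin ligands outside the basement membrane, such as Spp1 at 0.12 (SE 0.16) and Mfge8 at -0.18 (SE 0.14), 6 were above 0 and 9 below (median -0.18, 1 with an unadjusted p under 0.05).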

How the data were processed

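Each row of the deposited table is an Ensembl transcript with its gene symbol, an estimated count and an FPKM value per library. The estimated counts were made by the authors with a program not given in the sources used here, and 87.9% of the values summed per gene were within 0.01 of a whole number. The FPKM values were also computed by the authors, and for the 3739 to 3856 transcripts a library that were high enough to check, the lengths they imply had a median ratio of 1 to GENCODE M21 lengths and a 5th percentile of 0.989 to 0.992. Per the submitters' processing notes, build GRCm38 was named along with HISAT2 2.0.1, Cuffdiff 2.2.1, bcl2fastq 2.17.1.14, cutadapt 1.9.1 and FastQC 0.10.1, without roles or order. The library kit and its strandedness were not given in the sources used here, and the extraction text speaks of cultured cells while the labels give kidney.

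Counts were summed per symbol over 128603 transcripts, rounded, filtered (edgeR filterByExpr, minimum count 10) and scaled by TMM. Cko was compared with control by edgeR 4.0.16 quasi-likelihood tests (R 4.3.3) with Benjamini-Hochberg adjustment over the 15017 genes kept, calling adjusted p under 0.05. CPM values are TMM-normalised. FPKM was summed per symbol. Alternatives were DESeq2 1.42.0, other scaling, no filter, sums per gene ID, a replicate block, limma 3.58.1 on log2(FPKM + 1) and log2(FPKM + 0.1), and leaving out each library. The code was tested on simulated data. A pair of transcripts is compared by its share of their summed counts, and such shares are estimates because transcripts share exons. Intervals on counts of 0 cover counting error only. Results of 1 gene are not reported here. The other genes are named by role, and per-library values are given for the 2 most abundant of each role, the 5 of lowest unadjusted p in each direction, and set pairs and complexes. Of other gene lists, the 4 most abundant could be named. The stromal markers were all named after their values were seen. The genes and lists were chosen with earlier results of these data known.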

Additional observations from a re-analysis of the deposited data

How the results depend on the processing

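In all 13 alternatives 0 of the 43 genes passed the adjusted threshold, the lowest adjusted p of any being 0.523, and 27 to 31 had log2 fold changes below 0. The number called among all genes was 2 with edgeR, 15 with DESeq2, 5 without a filter, 1 with limma on either FPKM scale, and 1 to 6 when a library was left out. The median log2 fold change of the 43 genes was -0.14, moved to -0.060 with limma on log2(FPKM + 1), a scale that understates low genes, and ran from -0.15 to -0.067 when a library was left out. Replicate numbers did not pair the samples (correlations of same-numbered deviations 0.0900, -0.0915 and 0.116), and with the replicate block 2 genes and 0 of the 43 were called, with a median of -0.14. Direction held in every alternative for 26 of the 43. It reversed for Itgal without a filter (0.00034), Itgb7 with the replicate block (-0.013) and limma on log2(FPKM + 0.1) (-0.012), and Itga10 (-0.055 and -0.096) and Itgb6 (-0.0013 and -0.00303) on both FPKM scales, and the cause was not tested. Leaving out a library reversed Fras1 (-0.022 to 0.16), Frem2 (-0.15 to 0.062), Itga2 (-0.80 to 0.19), Itga2b (-0.21 to 0.0079), Itga6 (-0.075 to 0.24), Itgal (-0.11 to 0.091), Itgav (-0.045 to 0.41), Itgax (-0.25 to 0.28), Itgb2 (-0.34 to 0.017), Itgb5 (-0.065 to 0.11), Itgb6 (-0.24 to 0.21), Itgb7 (-0.18 to 0.19), Itgb8 (-0.038 to 0.19), Lama4 (-0.34 to 0.025), Lamb1 (-0.21 to 0.046) and Npnt (-0.059 to 0.18). Unadjusted p under 0.05 held for Frem1 and Lama2 in every fit on counts but in neither limma fit, where Itgam and Lamc3 had it. Itgam had log2 fold changes of 0.85 to 1.33 over leave-one-out fits and lost an unadjusted p under 0.05 without cko 2, cko 3 or control 2. Leaving out 1 library moved the log2 fold change of 33 of the 43 genes by over 1.5 times.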
